A study of Zea mays with 12 samples.

Results

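The genes described here are annotated maize genes with identifiers outside a window around mop1 on chromosome 2. They had less RNA in shoots of mop1-1 seedlings than in those of wild-type (WT) siblings. Counts were divided by the column sum of their library and are given as CPM, a scale on which all libraries have the same total. An annotated gene, which carries a Zm00001d identifier of the B73 version 4 genome, was a member when its mean over the 6 WT libraries was at least 1 CPM, its mean over the 6 mop1-1 libraries was at most 0.67 times that of WT, and its highest mop1-1 value was below its lowest WT value. Genes with identifier numbers 002800 to 003900, which surround mop1, were left out, as were 15 further genes that the rule lists, of which 0 met the other terms. The rule gave 71 members of 28534 annotated genes, in a table of 38444 features. Outside that window 17439 annotated genes had a WT mean of at least 1 CPM (called expressed genes here), and in 114 of them (0.654%) all mop1-1 libraries were below all WT libraries, whatever the ratio, while in 344 (1.97%) they were all above. The members were thus chosen by their measured CPM in the 2 genotypes, so their levels by genotype are a description, with no test.

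The tissue was shoots of seedlings at the V3 stage. The 4 groups were homozygous mop1-1 plants with abscisic acid (mop1-1 ABA), the same genotype without it (mop1-1 MS), homozygous Mop1 WT siblings with it (WT ABA) and without it (WT MS). Seedling roots stood for 1 h in liquid Murashige and Skoog medium, with 50 µM ABA or with no ABA, so that the MS plants too had been taken out of the soil and handled. The allele had been introgressed into B73, and both genotypes came from the selfed ear of 1 heterozygous plant, so other segments carried with the allele were not separated from it by this design. Each group had 3 biological replicates, which makes 12 libraries. In whole shoots, fewer cells of a type and less RNA per cell cannot be told apart.

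MOP1 is an RNA-dependent RNA polymerase that turns transcripts of RNA polymerase IV into double-stranded RNA, from which small interfering RNAs (siRNAs) of RNA-directed DNA methylation (RdDM) are cut. These siRNAs guide DNA methylation, mostly to transposons and other repeats near genes, and loss of the pathway is best known for the release of silenced sequences. The members, in contrast, had less RNA in the mutant. ABA is the hormone of drought and salt stress, and its receptors release protein kinases that switch on stress genes. The level of mop1 is not analysed here.

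The total count was 38295994 to 59118641 per library in mop1-1 ABA, 57041062 to 64564824 in mop1-1 MS, 50920182 to 65574775 in WT ABA and 52400521 to 64025102 in WT MS. Of the shoot markers 1 could be found by name, rca1 (Zm00001d048593, the activase of Rubisco), which averaged 442 CPM in mop1-1 and 546 CPM in WT. The endosperm gene bt2 (Zm00001d050032, an ADP-glucose pyrophosphorylase subunit) averaged 14.7 CPM in mop1-1 and 14.5 CPM in WT, and no marker of root or pollen could be looked up. Over all expressed genes the balance of the genotypes depended on the scaling. Among expressed genes whose libraries did not overlap, 24.9% were lower in mop1-1 with column sums, 47.9% with TMM-scaled library sizes and 19.8% with the sum over annotated genes alone. The median log2 ratio of mop1-1 over WT, taken over all expressed genes, was 0.07, -0.02 and 0.09 under these scalings. Of the 71 members, 68 met the rule with TMM-scaled library sizes, which gave 105 genes in all, and 63 met it with the sum over annotated genes alone, which gave no others.

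The members had a median of 47.4% of their WT level in mop1-1. Of the 71, 8 were at or under 25% of WT, 1 of these at 0, 32 were above 25% and up to 50%, and 31 were above 50%, up to the limit of the rule. Most were of low to middle abundance. In mop1-1 the mean level was 0 to 184 CPM with a median of 4.54 CPM, against 1.00 to 472 CPM with a median of 10.7 CPM in WT. In WT 19 members had a mean under 5 CPM, 43 had 5 to 50 CPM and 9 had at least 50 CPM. The gap between genotypes was wide in few of them. The lowest WT library was at least 1.5 times the highest mop1-1 library in 10 members, the gene at 0 included, and less than 1.1 times that library in 33. Leaving out a library cannot break the gap between genotypes, and the limits on ratio and level were kept by 61 members whichever library was left out.

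**Figure D1:**
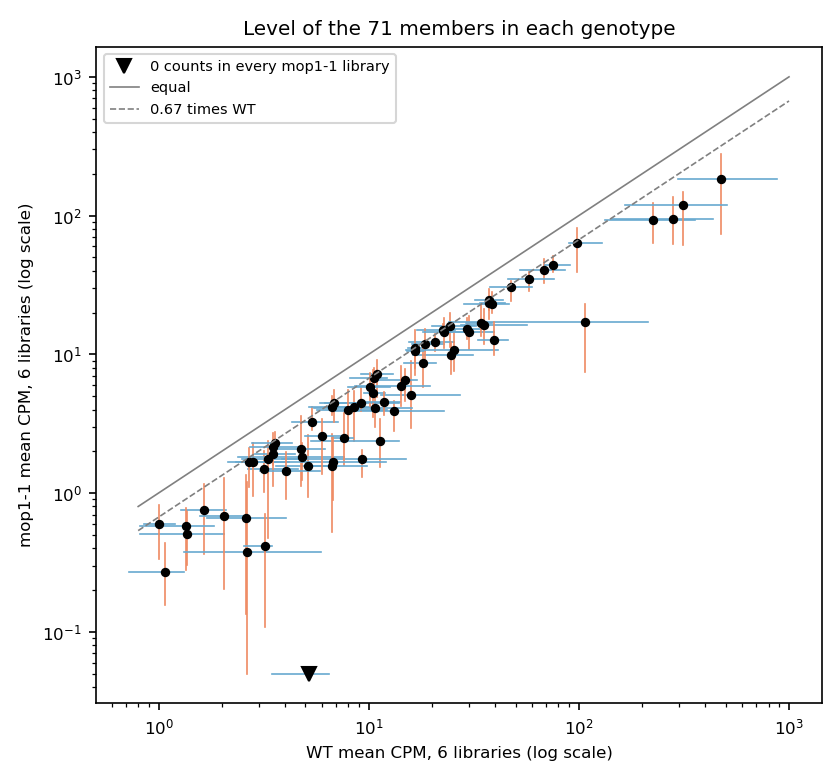
Mean CPM of each of the 71 members in mop1-1 (y axis) against WT (x axis), 6 libraries each, both on log scales, with bars from the lowest to the highest library of each genotype. Values of 0 are drawn at the lower edge. All points lie below the dashed line of 0.67 times WT, as the rule requires, and 5 members lie above 100 CPM in WT.

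Of the 71 members, 11 could be paired with an older identifier and 9 of these with a RefSeq gene, and 1 of the 9 has a product in its name, the small heat shock protein hsp 17.2. The other members are given by identifier, since no function is annotated for them in the sources used here.

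The member with the lowest level was Zm00001d000798, which was not placed on a chromosome. It had 0 counts in each of the 6 mop1-1 libraries. In WT it had 5.81, 4.10 and 6.46 CPM with ABA and 6.13, 5.26 and 3.47 CPM with MS, 1807 counts in all. Against a floor of 3 counts over the 6 mop1-1 libraries, its level was at least 572-fold lower in mop1-1, a bound that covers counting error only. It was thus measured in every WT library and in no mop1-1 library. Zm00001d000791, 7 identifiers away, was not placed either, so whether the 2 lie side by side is not known here. It was reduced to 52.0% of WT, with 16.3, 15.5 and 14.9 CPM in mop1-1 ABA and 18.2, 13.9 and 12.9 CPM in mop1-1 MS, against 26.5, 24.7 and 35.4 CPM in WT ABA and 32.4, 28.5 and 28.6 CPM in WT MS. The 2 genes were thus reduced to very different degrees.

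Zm00001d035336 was reduced to 13.1% of WT, with 0.616, 0.705 and 0.237 CPM in mop1-1 ABA and 0.555, 0.108 and 0.281 CPM in mop1-1 MS, against 2.54, 3.46 and 3.40 CPM in WT ABA and 3.45, 3.28 and 3.04 CPM in WT MS. Its WT libraries lay close together and its mop1-1 libraries were all below 1 CPM. Zm00001d031557 was reduced to 14.2% of WT, with 0, 0.287 and 0.575 CPM in mop1-1 ABA and 0, 1.21 and 0.175 CPM in mop1-1 MS, against 1.51, 2.99 and 1.63 CPM in WT ABA and 5.92, 1.33 and 2.43 CPM in WT MS. Here 2 mop1-1 libraries were at 0, and WT MS 1 was the highest WT library by a wide margin. Zm00001d044541 stood at 23.5% of WT, with 1.16, 1.46 and 1.20 CPM in mop1-1 ABA and 0.521, 2.48 and 2.65 CPM in mop1-1 MS, against 9.77, 7.17 and 6.21 CPM in WT ABA and 6.45, 5.15 and 5.59 CPM in WT MS. The 2 highest WT values were with ABA, and the lowest mop1-1 value was that of mop1-1 MS 1. Zm00001d045031 stood at 24.9%, with 2.06, 2.53 and 0.897 CPM in mop1-1 ABA and 2.05, 1.18 and 1.40 CPM in mop1-1 MS, against 12.1, 6.59 and 5.85 CPM in WT ABA and 8.49, 3.45 and 4.07 CPM in WT MS. Its WT libraries spread from 3.45 to 12.1 CPM, wider than the distance from the lowest of them to the highest mop1-1 library.

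The other 3 of the 8 most reduced members lie within 24 identifiers of each other on chromosome 10. Zm00001d023387 was the most abundant of them and was reduced to 16.1% of WT, with 12.2, 7.44 and 21.0 CPM in mop1-1 ABA and 23.0, 18.0 and 21.4 CPM in mop1-1 MS, against 90.1, 73.6 and 93.2 CPM in WT ABA and 213, 146 and 24.2 CPM in WT MS. WT MS 3 was near the mop1-1 values, and WT MS 1 was 8.83 times WT MS 3, the widest WT spread of all members. Zm00001d023402 was reduced to 21.0% of WT, with 1.55, 1.83 and 2.57 CPM in mop1-1 ABA and 3.41, 2.26 and 2.70 CPM in mop1-1 MS, against 13.99, 13.5 and 13.5 CPM in WT ABA and 12.7, 9.09 and 5.29 CPM in WT MS. Zm00001d023411 was reduced to 18.9%, with 1.46, 1.98 and 1.89 CPM in mop1-1 ABA and 1.31, 1.797 and 2.05 CPM in mop1-1 MS, against 15.1, 12.1 and 9.62 CPM in WT ABA and 8.03, 6.97 and 3.85 CPM in WT MS. In both, the 3 WT ABA libraries were above the 3 WT MS libraries, and WT MS 3 was again the lowest WT library. The 3 other expressed genes between them did not separate the genotypes, with 0 lower and 0 higher without overlap.

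**Figure D2:**
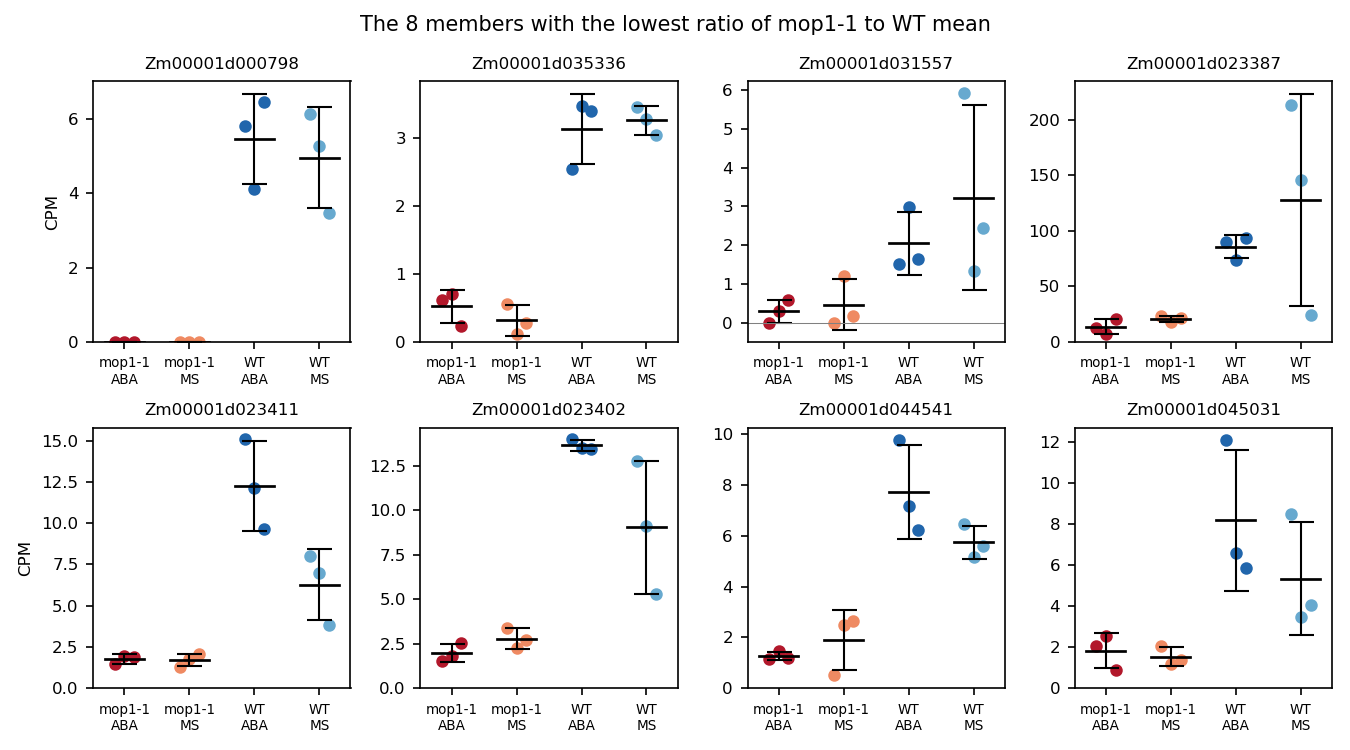
CPM in each library of the 8 members with the lowest ratio of mop1-1 to WT, by group. Points are libraries, horizontal lines are group means and bars are the SD (n = 3). Zm00001d000798 is at 0 in all mop1-1 libraries, and WT MS 3 of Zm00001d023387 sits at 24.2 CPM, close to the mop1-1 libraries.

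The most abundant member was hsp 17.2 (Zm00001d039936). Small heat shock proteins bind unfolding proteins and hold them until other chaperones refold them, and their genes respond strongly to heat and other stress. It was reduced to 39.0% of WT, with 213, 73.4 and 174 CPM in mop1-1 ABA and 278, 229 and 136 CPM in mop1-1 MS, against 345, 375 and 405 CPM in WT ABA and 879.6, 533 and 295 CPM in WT MS. WT MS 1 was the highest library, and mop1-1 ABA 2 was the lowest. The margin was small, since mop1-1 MS 1 at 278 CPM lay just under WT MS 3 at 295 CPM. Genes of this family resemble each other in sequence, so reads could be split between copies. Of the chaperone list, 3 genes could be found by name and hsp 17.2 alone was a member. The gene bip1 (Zm00001d014993), the endoplasmic reticulum chaperone BiP, had 230 to 731 CPM in mop1-1 and 388 to 1554 CPM in WT. The small heat shock gene hsp22 (Zm00001d052194) had 200 to 966 CPM in mop1-1 and 548 to 2314 CPM in WT. The means of bip1 and hsp22 were also lower in mop1-1, at 474 and 575 CPM against 720.5 and 1235 CPM in WT. Both overlapped between the genotypes, and hsp22 is also among the genes that the rule leaves out by identifier. The RdDM list held 2 genes found by name and the histone list 4, and 0 of these were members. Of them, rdr6 (Zm00001d040988), an RNA-dependent RNA polymerase of another small RNA pathway, averaged 31.3 CPM in mop1-1 and 26.2 CPM in WT. Its libraries did not overlap (28.8 CPM or more in mop1-1, 28.2 CPM or less in WT), with an edgeR adjusted p of 0.633 with ABA and 0.375 with MS.

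Another 3 members were above 200 CPM in WT. Zm00001d045478 was reduced to 38.3% of WT, with 139, 88.5 and 61.6 CPM in mop1-1 ABA and 135, 147 and 146 CPM in mop1-1 MS, against 316, 314 and 309.7 CPM in WT ABA and 507, 259 and 167 CPM in WT MS. The 3 WT ABA libraries were almost equal, while WT MS 1 was far above them and WT MS 3 far below. Zm00001d017547 was reduced to 33.3%, with 94.1, 78.9 and 62.4 CPM in mop1-1 ABA and 87.9, 137 and 102 CPM in mop1-1 MS, against 362, 278 and 268 CPM in WT ABA and 435, 144 and 203 CPM in WT MS. WT MS 2 came nearest to the mop1-1 values, of which the highest was mop1-1 MS 2. Zm00001d039685 was reduced to 40.9%, with 63.4, 76.3 and 96.4 CPM in mop1-1 ABA and 101, 123.5 and 94.5 CPM in mop1-1 MS, against 228, 193 and 225 CPM in WT ABA and 359, 221 and 133 CPM in WT MS. Its highest library was WT MS 1 and its lowest WT library was WT MS 3, as in hsp 17.2 and Zm00001d045478.

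The remaining 3 of the 8 most abundant members were reduced less, and their WT libraries varied less. Zm00001d029151 had 64.5% of its WT level, with 73.8, 38.9 and 46.8 CPM in mop1-1 ABA and 67.4, 70.4 and 81.3 CPM in mop1-1 MS, against 90.1, 89.4 and 89.9 CPM in WT ABA and 99.5, 89.4 and 128 CPM in WT MS. WT MS 3 was here the highest library, unlike in the members above. Zm00001d052263 had 58.5% of its WT level, with 51.5, 44.2 and 46.1 CPM in mop1-1 ABA and 41.6, 42.6 and 39.2 CPM in mop1-1 MS, against 77.0, 72.8 and 69.3 CPM in WT ABA and 73.3, 69.97 and 90.7 CPM in WT MS, and both genotypes held within narrow ranges. Zm00001d012742 had 59.9%, with 41.1, 47.3 and 37.9 CPM in mop1-1 ABA and 48.4, 36.8 and 32.6 CPM in mop1-1 MS, against 81.3, 85.6 and 60.8 CPM in WT ABA and 52.6, 60.4 and 66.9 CPM in WT MS. Its lowest WT library, WT MS 1, was just above its highest mop1-1 library.

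**Figure D3:**
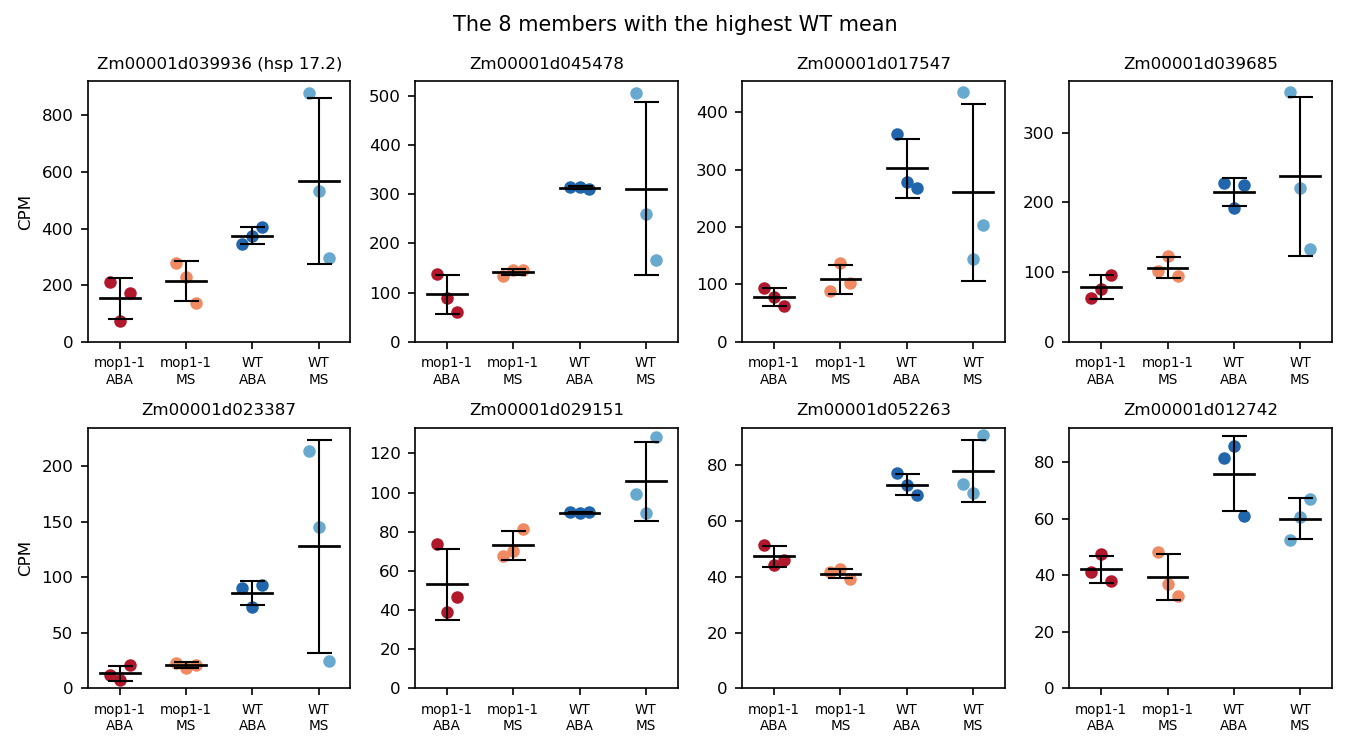
CPM in each library of the 8 members with the highest WT mean, by group. Points are libraries, horizontal lines are group means and bars are the SD (n = 3). WT MS libraries spread widely in the 5 most abundant members and narrowly in the other 3.

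The WT MS libraries set the edge of the rule for many members. Summed over the 71 members, the level was 1024 ± 127 CPM in mop1-1 ABA, 1185 ± 76.9 CPM in mop1-1 MS, 2428 ± 77.4 CPM in WT ABA and 2605 ± 861 CPM in WT MS (SD, n = 3 each). The WT MS libraries had 3568, 2338 and 1908 CPM. By this sum, which gives most weight to abundant members, WT MS 3 was nearest to mop1-1 and WT MS 1 farthest from it. For a typical member WT MS 1 did not stand highest, since its median member level was 10.8 CPM, against 12.4 CPM in WT ABA 1, and it was the lowest WT library for 18 members (25.4%, against 36.0% of the other expressed genes). WT MS 3 was the lowest WT library for 29 of the 71 members (40.8%), against 14.5% of the other expressed genes, and its median log2 deviation from the other WT libraries over the members was -0.25. WT MS 1 had the lowest TMM factor of all libraries, 0.877. Without WT MS 3 the same rule gave 222 genes, 69 of them members, and without WT MS 1 it gave 109, 67 of them members. Whether the plants of these libraries differed in another way was not tested.

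**Figure D4:**
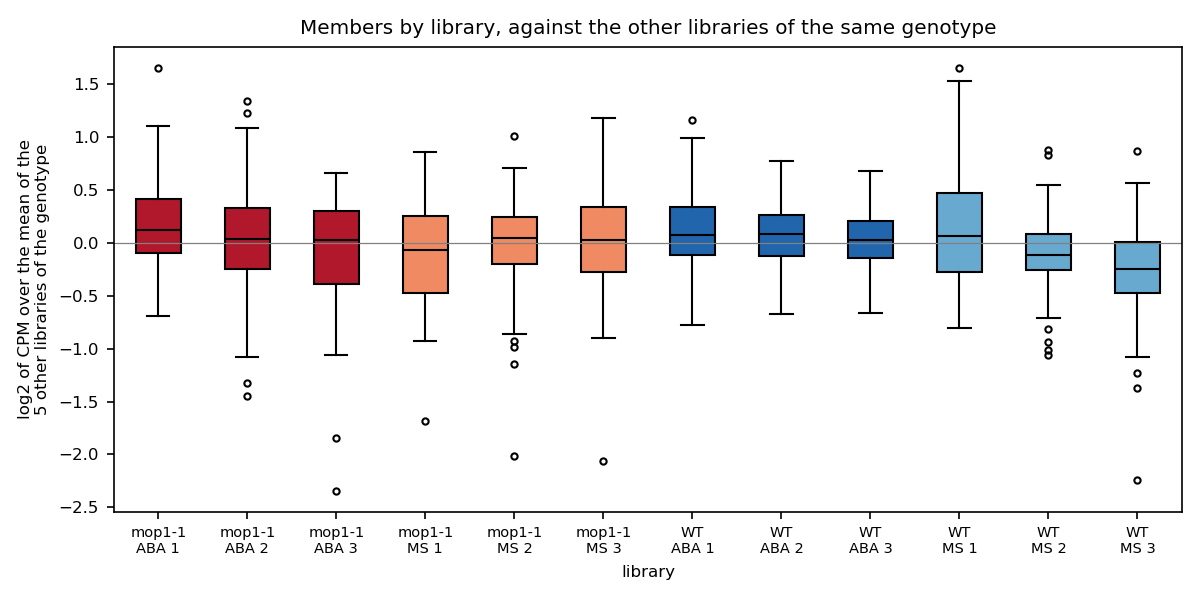
Log2 of the CPM of each member over the mean of the log2 values in the 5 other libraries of the same genotype, for 69 members in mop1-1 (2 members with a library at 0 are left out) and 71 in WT. Boxes are quartiles with the median, and whiskers reach 1.5 times the box. The median of WT MS 3 is the lowest of all libraries, at -0.25.

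At the limits of the rule the genes differed little. The ratio to WT was 0.668 in Zm00001d016361 and 0.667 in Zm00001d017130 inside the limit, and 0.671 in Zm00001d006910 and 0.672 in Zm00001d028398 outside it. For the minimum level, Zm00001d012563 and Zm00001d047342 had WT means of 1.00 and 1.07 CPM, while Zm00001d053229 and Zm00001d027254 fell short at 0.743 and 0.7003 CPM. The gap was smallest in Zm00001d049228, with a highest mop1-1 value of 2.728 CPM against a lowest WT value of 2.729 CPM. In Zm00001d039444 these were 28.27 CPM and 28.32 CPM, and Zm00001d005109 missed by having 4.42 CPM in mop1-1 against 4.40 CPM in WT, as did Zm00001d008929 with 35.9 against 35.6 CPM. Zm00001d003924 lies 24 identifiers beyond the window around mop1. It was reduced to 32.2% of WT, with 8.99, 2.95 and 3.76 CPM in mop1-1 ABA and 4.88, 3.86 and 6.17 CPM in mop1-1 MS, against 15.8, 12.9 and 15.3 CPM in WT ABA and 27.1, 11.5 and 12.5 CPM in WT MS. With it, 5 members were placed on chromosome 2, the chromosome of mop1. The others were Zm00001d005503, Zm00001d007076, Zm00001d007491 and Zm00001d007495. For the members on this chromosome, linkage to mop1 and an unlinked difference cannot be told apart here. Of the 3 members that were not placed on a chromosome, the same holds for Zm00001d000791 and Zm00001d000798. The number of the other, Zm00001d045946, lies between those of Zm00001d045478 and Zm00001d047210, which were placed on chromosome 9. Within the window, 18 of 367 expressed genes met the other terms.

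For the genotype difference within each treatment, a gene was counted as a differentially expressed gene (DEG) when its adjusted p in edgeR's quasi-likelihood test did not exceed 0.05 and its log2 fold change reached 0.95 in either direction. Of the 71 members, 24 were DEGs with lower values in Group C (mop1-1 ABA against WT ABA), where 0.424% of the 26401 features tested were, and 19 in Group D (mop1-1 MS against WT MS), where 0.216% were. DESeq2 called 43 and 36 members lower in Groups C and D (1.45% and 0.774% of all features), and edgeR's exact test called 39 and 35 (1.26% and 0.693%). The rule used these values, so nothing is read from the counts. The chaperone member Zm00001d039936 was not a DEG by the quasi-likelihood test (edgeR adjusted p = 0.157 in Group C, 0.197 in Group D). The chaperone genes bip1 and hsp22, which were no members, were not DEGs either (edgeR adjusted p = 0.303 and 0.110 in Group C, 0.613 and 0.514 in Group D). In Group C the log2 fold change was -1.39 in Zm00001d039936 and -1.68 in hsp22. In Group D these were -1.51 and -0.97. The median log2 fold change of the members was -1.14 in Group C and -1.07 in Group D, against 0.01 and -0.00 over all features. The median level in mop1-1 was 48.4% of WT with ABA and 49.9% without. The ratio was lower with ABA in 40 members and higher in 30. The steady member Zm00001d038302, at 32.0% of WT, had 12.8, 10.3 and 17.0 CPM in mop1-1 ABA and 12.3, 13.3 and 9.94 CPM in mop1-1 MS, against 35.0, 42.0 and 45.8 CPM in WT ABA and 33.1, 39.7 and 41.4 CPM in WT MS. It stood nearly alike in both treatments, with log2 fold changes of -1.71 ± 0.18 in Group C and -1.74 ± 0.18 in Group D (SE). It was named after its values were seen.

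The rule did not contrast ABA with MS, so the effect of ABA was tested. The rule did require the ABA and MS libraries of mop1-1 to lie below those of WT, so a gene with a large change by ABA could overlap and drop out, and the counts and ranges here are partly limited by that. In mop1-1 (Group A, mop1-1 ABA against mop1-1 MS) 0 of the 71 members were DEGs, and in WT (Group B, WT ABA against WT MS) 0 were. Over all 26401 features the same test called 0% in each. DESeq2 called 0 members in either group, while 0.0493% of all features were called in mop1-1 and 0.258% in WT. The exact test of edgeR called 0 members too, beside 0.00379% and 0.159% of all features. At an unadjusted p under 0.05, 4 members (5.63%) passed in Group A, beside 3.83% of all features, and 2 (2.82%) in Group B, beside 7.15%. With so few members past this line, no difference from all features is read from these shares. The members' median log2 fold change was -0.03 for ABA in mop1-1 and 0.07 for ABA in WT. In Group A 30 members had a positive value (49.9% of all features did) and 40 a negative one, and the gene at 0 had none. In Group B 39 were positive (47.9% of all features) and 32 negative. The values ran from -0.77 to 0.81 in Group A and from -0.73 to 0.91 in Group B, with a median SE of 0.29 in Group B. A typical member thus had an SE in Group B well below the DEG threshold of 0.95. That alone does not show that a change of this size would be called. Zm00001d023411, at 0.91 ± 0.32 in Group B, had an edgeR adjusted p of 0.600. The smallest edgeR adjusted p over all features was 0.391 in Group A and 0.417 in Group B. Without regard to size, the ABA libraries were all above the MS libraries in 5 members in mop1-1 (8.54% of expressed genes were) and in 8 members in WT (11.3%, against 7.72%). They were all below in 1 member in mop1-1 (2.82% of all) and 1 in WT (3.66% of all).

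Over both genotypes together, 0 of 71 members were DEGs for the mean effect of ABA, where 0% of all features were, and DESeq2 also called 0 members (0.129% of all features). By the quasi-likelihood test 4 members (5.63%) had an unadjusted p under 0.05, against 6.93% of all features. Of the members 39 had a positive mean effect, beside 48.5% of all features. The 4 past that line had small changes. Zm00001d029151, whose values are given above, had a mean log2 fold change of -0.40 ± 0.14 (SE, edgeR adjusted p = 0.675). Zm00001d016844 had 1.04, 2.64 and 2.13 CPM in mop1-1 ABA and 1.01, 0.929 and 1.72 CPM in mop1-1 MS, against 6.19, 5.70 and 6.79 CPM in WT ABA and 3.61, 3.81 and 4.86 CPM in WT MS. Its mean log2 fold change was 0.59 ± 0.23 (edgeR adjusted p = 0.704), with the WT ABA libraries all above the WT MS libraries. Zm00001d026513 had 2.08, 3.60 and 2.33 CPM in mop1-1 ABA and 1.13, 2.23 and 1.17 CPM in mop1-1 MS, against 4.59, 6.21 and 5.34 CPM in WT ABA and 4.20, 4.72 and 3.67 CPM in WT MS. Its mean change was 0.53 ± 0.23 on the log2 scale (edgeR adjusted p = 0.710), and the ABA libraries were above the MS libraries in WT except for WT ABA 1, which lay below WT MS 2. Zm00001d048099 had 3.43, 3.13 and 3.42 CPM in mop1-1 ABA and 1.46, 1.36 and 2.63 CPM in mop1-1 MS, against 5.86, 6.04 and 6.17 CPM in WT ABA and 5.0, 7.54 and 5.26 CPM in WT MS. The mop1-1 ABA libraries were all above the mop1-1 MS libraries, while WT MS 2 was the highest library of all, and the mean log2 fold change was 0.40 ± 0.18 (edgeR adjusted p = 0.717). None of the 4 passed the adjusted threshold.

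The 3 chaperone genes had negative log2 fold changes with ABA in both genotypes and did not pass the threshold. The log2 fold change of hsp 17.2 (Zm00001d039936) was -0.56 ± 0.44 in mop1-1 and -0.68 ± 0.44 in WT (SE, edgeR adjusted p = 1.00 and 0.797). Its ABA and MS libraries overlapped in both genotypes. Over both genotypes the change was -0.62 ± 0.31 in hsp 17.2, -1.12 ± 0.26 in bip1 (Zm00001d014993) and -0.93 ± 0.33 in hsp22 (Zm00001d052194), with edgeR adjusted p-values of 0.753, 0.610 and 0.675.

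**Figure D5:**
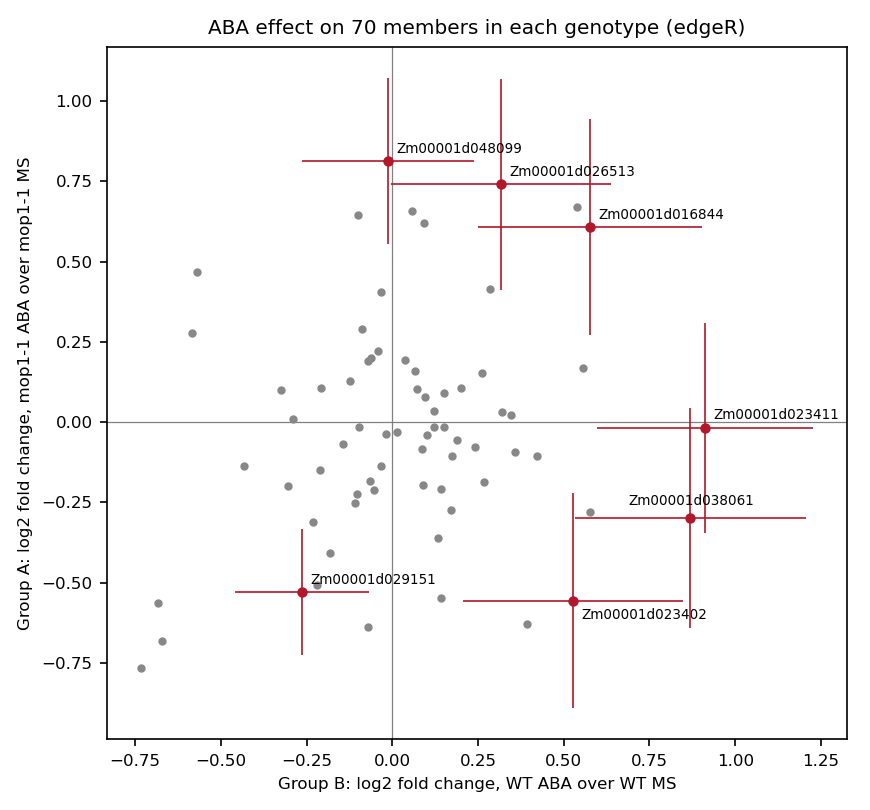
Log2 fold change with ABA in mop1-1 (Group A, y axis) and in WT (Group B, x axis) for 70 members, without the gene at 0 in mop1-1. The 7 members named for the smallest p of the mean effect or of the interaction are in red with bars of 1 SE. All values lie between -0.77 and 0.91, and 0 members are DEGs in either group.

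The interaction, the effect of ABA in mop1-1 minus that in WT, asks whether the response differed between genotypes. It called 0 of 71 members and 0% of all features by the quasi-likelihood test, and DESeq2 called 0 members and 0.102% of all features. An unadjusted p under 0.05 was given by 3 members (4.23%), against 4.24% of all features. The median over the members was -0.08, with 28 positive values (51.6% of all features were positive), 43 negative ones and a range of -1.17 to 1.04. The largest by p was Zm00001d038061, with 2.31, 1.46 and 1.23 CPM in mop1-1 ABA and 1.95, 1.81 and 2.104 CPM in mop1-1 MS, against 7.61, 5.41 and 5.95 CPM in WT ABA and 4.79, 2.78 and 2.38 CPM in WT MS. Its WT ABA libraries were all above its WT MS libraries while its mop1-1 libraries overlapped, and the interaction was -1.17 ± 0.48 (SE, edgeR adjusted p = 1.00). In Zm00001d023402 of chromosome 10 the interaction was -1.08 ± 0.46 and in its neighbour Zm00001d023411 it was -0.93 ± 0.45, both with an edgeR adjusted p of 1.00. These genes had WT ABA values above WT MS values and mop1-1 values that were low in both treatments. Zm00001d048099 had an interaction of 0.83 ± 0.36 (edgeR adjusted p = 1.00), in the other direction. A median SE of 0.42 for the interaction limits what could be seen. The difference in the effect of ABA between genotypes was not detectable for any single member.

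Some members lay close together by identifier number, which runs along each chromosome for genes that are placed on one. There were 2 pairs within 5 identifiers. Chromosomes were read from flanking genes with a RefSeq match. Zm00001d007491 and Zm00001d007495 on chromosome 2 were reduced to 48.9% and 47.2% of WT. The first had 3.75, 4.23 and 5.16 CPM in mop1-1 ABA and 2.35, 4.06 and 5.42 CPM in mop1-1 MS, against 8.12, 8.10 and 10.9 CPM in WT ABA and 6.16, 8.996 and 8.79 CPM in WT MS. The second had 1.39, 1.33 and 1.74 CPM in mop1-1 ABA and 1.03, 2.01 and 1.49 CPM in mop1-1 MS, against 3.20, 3.03 and 4.62 CPM in WT ABA and 2.65, 2.84 and 2.70 CPM in WT MS. In both, WT MS 1 was the lowest WT library and WT ABA 3 the highest. On chromosome 3, Zm00001d039560 and Zm00001d039565 were at 50.2% and 50.0% of WT. Zm00001d039560 had 5.12, 6.76 and 3.54 CPM in mop1-1 ABA and 7.77, 4.48 and 3.86 CPM in mop1-1 MS, against 9.84, 9.81 and 11.7 CPM in WT ABA and 9.48, 9.92 and 11.98 CPM in WT MS. Zm00001d039565 had 2.73, 5.41 and 2.45 CPM in mop1-1 ABA and 5.50, 3.21 and 4.66 CPM in mop1-1 MS, against 6.68, 8.34 and 7.99 CPM in WT ABA and 12.2, 6.98 and 5.67 CPM in WT MS. The 2 genes varied differently, since WT MS 1 was the lowest WT library of the first and the highest of the second. In all, 15 members fell into 6 runs with gaps of at most 50 identifiers. The same count was not made for other expressed genes, so no clustering is read from the runs. The longest had 4 members on chromosome 1, Zm00001d028745 to Zm00001d028841, with 25.4% to 66.0% of WT, and 41 other expressed genes between them, of which 0 were lower and 3 higher in mop1-1 without overlap. By chromosome, 9 members (12.7%) were on chromosome 10, which held 6.14% of expressed genes, and 3 (4.23%) were on chromosome 7, against 7.82%.

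Most genes around the members that were no members themselves did not separate the genotypes. A neighbour that met the rule was a member and is not counted here. The count of lower neighbours is thus limited by the rule, while that of higher ones is not. Within 5 identifiers of a member there were 271 other expressed genes. Of these 1 (0.369%) was lower in mop1-1 without overlap, against 0.248% of expressed genes that were no members, and 10 (3.69%) were higher, against 1.98%. With TMM-scaled library sizes 1 was lower, 0.369% against 0.740% of expressed genes that were no members, and 4 were higher, 1.48% against 1.23%. Both comparisons with the other genes thus depended on the scaling. Within 10 identifiers, 4 of 520 were lower (0.769%, against 0.248%). The 2 with the largest fold change were higher in mop1-1, opposite to the members. Zm00001d007488, 3 identifiers from Zm00001d007491, averaged 5.04 ± 2.25 CPM in mop1-1 and 1.11 ± 1.85 CPM in WT (SD, n = 6), with overlap. Zm00001d000786, 5 identifiers from Zm00001d000791, averaged 12.9 ± 5.52 CPM in mop1-1 and 3.06 ± 2.15 CPM in WT, without overlap. Since Zm00001d000791 was not placed on a chromosome, these 2 are near by number only. Zm00001d007498, 3 identifiers from Zm00001d007495, had 11.5 ± 1.34 CPM in mop1-1 and 3.18 ± 0.315 CPM in WT, also without overlap and named after its values were seen. These 2 genes with opposite differences thus lay 3 identifiers apart on chromosome 2. Next to hsp 17.2, Zm00001d039933 at a distance of 3 identifiers averaged 107 ± 68.8 CPM in mop1-1 and 363 ± 255 CPM in WT, lower like the member but with overlap, and was likewise named after its values were seen.

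The study lists genes whose promoters resemble MOP1-dependent siRNAs, which it chose on these libraries. Of the 173 genes listed, 128 were expressed outside the window and 3 of these were members, beside 71 members among all 17439 expressed genes. The 3 were Zm00001d038061, Zm00001d039560 and hsp 17.2, whose values are given above. Since both lists rest on the same libraries, the overlap is a count and no more.

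The members did not vary as 1 block. The correlation of their within-group deviations, on log2(CPM + 0.5) over 12 libraries that share depth and scaling, had a median r of 0.04 over 2485 pairs, with 3.54% of pairs above 0.7 and 2 above 0.9. The pair with the highest value was Zm00001d013289 and Zm00001d023387 (r = 0.912), followed by Zm00001d016361 and Zm00001d037958 (r = 0.906). On chromosome 10, Zm00001d023387 and Zm00001d023402 had r = 0.888. The member most like hsp 17.2 was Zm00001d043782 (r = 0.845), and Zm00001d023387 came next (r = 0.734). These are descriptions over 12 libraries, chosen after the values were seen.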

How the data were processed

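RNA of V3 seedling shoots was sequenced in 12 libraries, and the deposited values are whole-number counts per gene, not normalized. Per the study's methods, the authors checked and trimmed the reads with fastp 0.21.0 and Cutadapt, used HISAT2 2.2.1 for mapping to version 4 of B73, and made the counts with StringTie 2.1.4 and its companion script. Such counts are derived from coverage, so they need not equal numbers of reads, and how reads with several places were shared between similar genes is not given in the sources used here.

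Members were chosen on CPM by column sum, with the WT minimum of 1 CPM and the highest ratio of 0.67. The members and the gene lists were chosen with earlier results of these data known. For tests, features with at least 0.58 CPM in at least 3 libraries (26401, including all 71 members) were normalized by TMM and fitted with edgeR 4.0.16 (quasi-likelihood test, R 4.3.3) with 4 group means over 12 libraries. Benjamini-Hochberg adjustment ran over all features. DEGs had an adjusted p not above 0.05 with a log2 fold change of 0.95 or more in either direction. The SE was the log2 fold change over the square root of F. DESeq2 1.42.0, edgeR's exact test, other scalings and filters, a replicate block and leaving out each library were alternatives. The tests were checked on simulated data.

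The total count was 38295994 to 65574775 per library. Replicate libraries differed by more than sampling noise (chi-square per degree of freedom 30.6 to 186), so each counted as 1 sample. The labels give replicate numbers but no shared day or plant, and the libraries were treated as unpaired. Floors cover counting error only.

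Members given in every library were the 8 of highest WT mean, the 8 of lowest ratio, the 4 of smallest p for the mean ABA effect and 4 for the interaction, those with a product name and those within 5 identifiers of another. Names came from a RefSeq table of the NAM-5.0 assembly through older identifiers in the study's workbook, which paired 3941 identifiers and matched 2658. Its coordinates were not used, since the build differs. Columns with no sample numbered 0. Protein and promoter sequences, small RNA data and later time points were not analysed here.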

Additional observations from a re-analysis of the deposited data

How the results depend on the processing

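With ABA, 0 of the 71 members were DEGs in Group A, Group B, the mean effect and the interaction under every alternative run, including DESeq2, no fold threshold and each library left out. The 7 members named for ABA were followed in the contrasts they were named for, the mean effect or the interaction. There their changes kept their direction, and their adjusted p was 0.327 or more (Zm00001d029151). In Group B, DESeq2 gave Zm00001d023411 an adjusted p of 0.307. The count of members called lower by genotype moved more. In Group C it was 43 with DESeq2 and 39 with edgeR's exact test, against 24, and 8 to 30 with 1 library left out, of which mop1-1 ABA 1 gave 15, mop1-1 ABA 3 gave 8, WT ABA 1 or WT ABA 2 gave 9 and WT ABA 3 gave 14. In Group D it was 36, 35 and, with the 6 libraries of the comparison alone, 4, against 19, and 10 to 29 with 1 library left out, of which mop1-1 MS 1 or mop1-1 MS 2 gave 11, mop1-1 MS 3 gave 10 and WT MS 3 gave 29. The number of members was 40 with a ratio of at most 0.5, 105 with TMM-scaled sizes, and 73 to 222 with 1 library left out. Lower neighbours numbered 4 of 520 within 10 identifiers (0.769%, against 0.248% of expressed genes that were no members), and higher neighbours 4 with TMM-scaled sizes. The cause was not tested. With the replicate number as a block, members called lower were 20 in Group C and 17 in Group D. Libraries with the same number did not deviate together (r of -0.17 to 0.10 over 18 pairs), and 0 libraries correlated best with their own number, so the block was not used. With 3 libraries a group and a median SE of 0.42 for the interaction, small differences in the effect of ABA could not be detected. Members of low level rest on fewer counts, such as Zm00001d012563 with 351 over the 6 WT libraries.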
